A study of Mus musculus with 12 samples.

Results

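The respiratory chain and the ATP synthase were followed through 107 protein-coding genes, chosen by name from the 54532 genes counted in each library, of which 22046 are protein-coding. The choice took all genes whose symbols begin with Ndufa, Ndufb, Ndufc, Ndufs or Ndufv (complex I), the genes Sdha to Sdhd (complex II), symbols beginning with Uqcr (complex III), Cox4 to Cox8 (complex IV) or Atp5 (ATP synthase, complex V), and the protein genes of the mitochondrial genome. The nuclear genome carries 94 of them and the mitochondrial genome 13. Ndufaf genes encode assembly factors of complex I, and Ndufa4 and Ndufa4l2 were counted with complex IV, to which NDUFA4 belongs. Cox7a2l, a factor of supercomplexes, and Atp5s, a coupling factor, were kept apart from the complexes.

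Complexes I to IV pass electrons from NADH and succinate to oxygen, complexes I, III and IV pump protons across the inner mitochondrial membrane, and the ATP synthase uses the returning protons to make ATP. Complex II is wholly encoded in the nucleus and pumps no protons, whereas the other complexes are built from subunits of both genomes. Hepatocytes are rich in mitochondria, and the oxidation of fatty acids in the liver feeds its electrons into this chain.

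All mice were male, carried floxed PPARγ alleles on both chromosomes and received an AAV8 vector intraperitoneally at 8 weeks of age. The PPARγ-KO mice received AAV8.TBG.PI.Cre.rBG, whose Cre is driven by the hepatocyte-specific TBG promoter, and their wild-type littermates received AAV8.TBG.PI.eGFP.WPRE.bGH. Both genotypes were then fed a fast-food diet (FFD), rich in saturated fat, cholesterol and sucrose with sugar water, for 2 or 5 months, and the RNA of whole liver was sequenced from 3 libraries per genotype and time, 12 in all. Deletion was aimed at hepatocytes, so the other cells of the liver kept PPARγ, and no group on another diet was analysed here. The labels call the 3 libraries of a group repeats and do not say that each came from its own mouse, so the p-values measure the spread between these libraries. Levels in whole-liver RNA cannot tell fewer cells of a type from less RNA per cell.

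The libraries held 16367775 to 27452284 counts. The targeted gene Pparg was not lower in the libraries labelled PPARγ-KO, at 39.3 and 56.3 CPM (counts scaled by edgeR's TMM factors for library size and composition) in wild-type and PPARγ-KO at 2 months and 38.5 and 84.8 CPM at 5 months. Directions therefore follow the labels of the libraries. The counts are per gene, so the deleted exons could not be examined apart. From Western blots of liver, the paper reports efficient loss of PPARγ protein in PPARγ-KO mice at both times. Those blots measure protein, whereas the values here are RNA over the whole gene. Genes of hepatocytes, 10 markers in all, summed to 61000 to 73000 CPM in the wild-type libraries and 80100 to 93100 in those labelled PPARγ-KO. Macrophage genes, also 10, summed to 489 to 646 CPM in the 6 libraries at 2 months, to 1390 to 1570 CPM in wild-type at 5 months and to 694 to 869 CPM in PPARγ-KO at 5 months. Striated muscle genes, which would accompany muscle isoforms of complex IV, stayed at or under 0.171 CPM in sum. Stellate cell genes, 10 in the list, summed to 622 to 883 CPM in wild-type and 483 to 639 in PPARγ-KO, and endothelial genes, also 10, to 340 to 464 and 287 to 439 CPM. The smaller lists summed to at most 14.6 CPM (T and NK cells), 78.9 (B cells), 6.84 (neutrophils), 280 (cholangiocytes) and 660 CPM (erythroid cells). A list of 5 fat genes summed to 13.5 to 34.9 CPM in wild-type against at most 0.613 in PPARγ-KO. In wild-type at 2 months 4 of these 5 had 0 counts, so the sum there was that of 1 gene. Only 1 of the 5 could be tested between genotypes. The list includes Cidea, a lipid droplet gene that the paper reports lower in PPARγ-KO livers, so the sum does not measure fat tissue. What part these shifts have in the results below was not tested.

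The protein genes of the mitochondrial genome took 4.479% to 6.363% of the counts and the nuclear genes of the chain 0.9155% to 1.386%. Levels between genes were compared as the mean CPM of all 12 libraries per kb of the gene length in the files, which is the length of all exons joined and often exceeds that of the mature transcript. On that scale mt-Co1, a catalytic subunit of complex IV, led at 12698 CPM per kb, followed by mt-Cytb of complex III at 8164 and mt-Nd1 of complex I at 5821. The highest nuclear gene was Cox6a1 of complex IV at 420 CPM per kb. The ATP synthase genes Atp5a1 and Atp5b, which encode the α and β subunits of the catalytic head, stood at 351 and 277 CPM per kb, with Cox8a of complex IV between them at 312. Sdhd led complex II at 148 CPM per kb and Uqcrfs1, the Rieske iron-sulfur protein, led complex III at 164, while Ndufa2 led the nuclear genes of complex I at 130.2. The lowest tested nuclear genes of their complexes were Ndufb2 at 1.66, Sdhc at 53.1, Uqcrc1 at 61.5, Ndufa4l2 at 1.42 and Atp5l at 10.9 CPM per kb. Within the ATP synthase the mitochondrial gene mt-Atp8 stood below Atp5l, at 4.93 CPM per kb. Among the assembly factors the range was 2.72 for Ndufaf2 to 17.3 for Ndufaf8.

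Of the 107 genes, 7 had too few counts for a test in any comparison, which left 100 genes, 87 nuclear and 13 mitochondrial. They were 6 isoforms of complex IV, several of them known from muscle, lung or testis, and a second entry for Atp5o. In all 12 libraries together, Cox4i2 had 57 counts, Cox6b2 50, Cox6a2 25 and Cox8b 9, and Cox7b2 and Cox8c had 0. The widely expressed partners stood far higher in every library. Cox4i1 ranged from 250.1 to 488.7 CPM, and Cox6a1 from 203.9 to 408.7. Cox7a1, the heart and muscle isoform, reached 0.2233 to 1.515 CPM, and Cox7a2, its widely expressed partner, 87.61 to 144.7. The second entry for Atp5o had 0 counts.

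**Figure D1:**
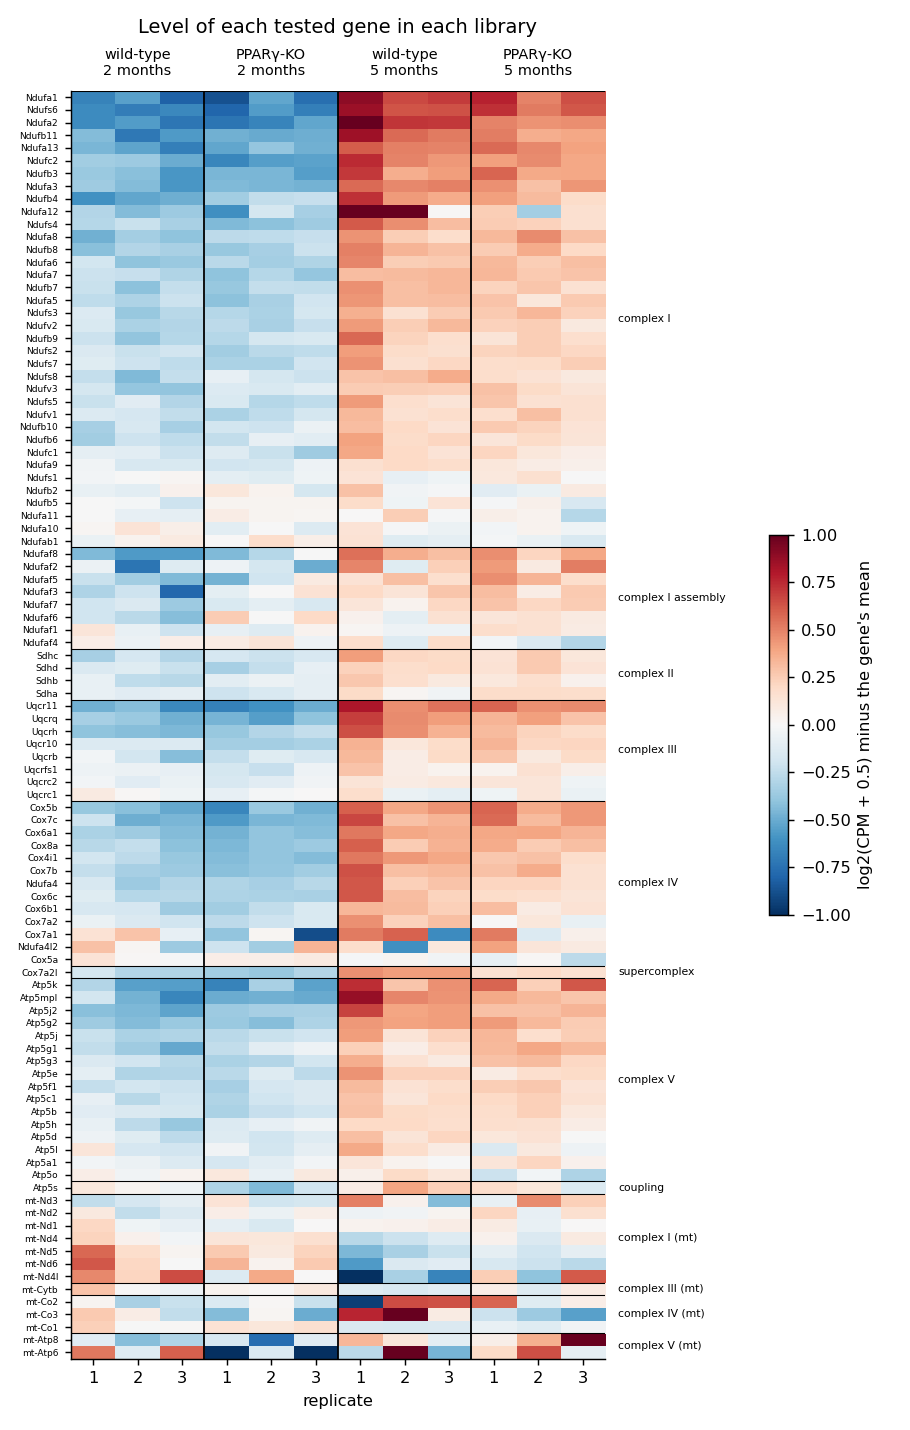
Level of each of the 100 tested genes (rows, grouped by complex and, for those marked mt, by mitochondrial origin) in each of the 12 libraries (columns), as log2(CPM + 0.5) minus the mean of the gene, with the colours saturated beyond 1 in either direction. Most nuclear genes are below their mean in the 6 libraries at 2 months and above it in the 6 at 5 months, whereas mt-Nd5 and mt-Nd6 mostly show the reverse.

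At 2 months no gene of the respiratory chain passed the test between the genotypes. With edgeR's quasi-likelihood test and Benjamini-Hochberg adjustment over all genes, 0 of the 100 members passed an adjusted p of 0.05, and DESeq2 also called 0. Without adjustment, 10 members had p under 0.05 in edgeR. Across all 14573 tested genes, edgeR called 3.56% (1.78% in each direction). With the replicate number as a block, edgeR called 5.61% of all genes and again 0 members. The median log2 fold change of PPARγ-KO over wild-type was -0.02 in the nuclear members and -0.04 in the mitochondrially encoded ones, against -0.01 over all genes.

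The smallest adjusted p at 2 months was that of Ndufaf6, an assembly factor of complex I. It had 10.31, 9.777 and 8.724 CPM in the wild-type libraries and 14.33, 11.85 and 13.73 CPM in the PPARγ-KO libraries. The groups did not overlap, and the log2 fold change was 0.47 (SE 0.12, edgeR adjusted p = 0.0701). The next genes were chosen after their values were seen. Uqcr10, a small subunit of complex III, had 80.12, 80.06 and 80.24 CPM in wild-type and 69.6, 69.36 and 70.66 CPM in PPARγ-KO; the groups were well apart and narrow (log2 fold change -0.20, edgeR adjusted p = 0.113). Ndufb4 of complex I stood at 26.07 to 28.35 CPM in wild-type and 31.2 to 33.97 in PPARγ-KO (log2 fold change 0.27, edgeR adjusted p = 0.105). Of the 87 nuclear members, 12 were higher and 10 lower in PPARγ-KO without overlap of the groups, against 12.1% and 12% of all genes. These counts are near the background.

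At 5 months, 7 members differed between the genotypes, 6 of them lower and 1 higher in PPARγ-KO, while edgeR called 18.4% of all 14138 genes at this time (8.9% higher and 9.51% lower). With library size as the only scaling the calls were 21, all lower. That scaling moved the median of all genes from -0.01 to -0.07, and the share of all genes it called is not given here. DESeq2 called 7. The 6 lower genes came from complexes I, III, IV and V and the supercomplex factor, and 0 of the 8 assembly factors and 4 complex II genes passed in edgeR (2 and 0 with an unadjusted p under 0.05). The median of the 87 nuclear members was -0.07 and that of the 13 mitochondrial ones 0.13, against -0.01 over all genes.

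Cox7a2l (ENSMUSG00000024248, chromosome 17 from 83501919 to 83514333 in mm10) links complexes III and IV in supercomplexes and had the smallest adjusted p. Its wild-type libraries held 120.7, 117.7 and 117.5 CPM and its PPARγ-KO libraries 97.57, 101 and 97.48 CPM. The groups were well apart, with a log2 fold change of -0.26 ± 0.06 (SE; adjusted p = 0.00835 in edgeR). Cox7a2 (ENSMUSG00000032330, chromosome 9), its relative within complex IV, had 144.7, 123.7 and 129.9 CPM in wild-type and 105.6, 113.7 and 99.81 CPM in PPARγ-KO (log2 fold change -0.31, SE 0.07, edgeR adjusted p = 0.011). Every PPARγ-KO library lay below every wild-type library. Ndufa2 (ENSMUSG00000014294), a small accessory subunit of complex I, held 134.5, 110.5 and 109.8 CPM in wild-type and 94.88, 92.21 and 92.93 CPM in PPARγ-KO, a difference of -0.33 ± 0.08 (log2, SE, edgeR adjusted p = 0.0101). Wild-type replicate 1 was the highest library for this gene, and the groups did not overlap.

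The other 4 genes were closer to the threshold. Atp5o, the oligomycin sensitivity subunit of the ATP synthase stalk, had 57.46, 63.4 and 59.86 CPM in wild-type and 47.6, 54.44 and 44.73 CPM in PPARγ-KO (log2 fold change -0.29, edgeR adjusted p = 0.0233). Ndufs4, an accessory subunit of the electron input module of complex I, fell by 0.24 on the log2 scale (64.4 to 79.85 against 58.17 to 62.14 CPM, edgeR adjusted p = 0.0459), and Uqcrh, the hinge protein of complex III, also by 0.24 (136.7 to 167.5 against 122 to 133.3 CPM, edgeR adjusted p = 0.0473). Neither pair of groups overlapped. Atp5g1, 1 of 3 genes for the same c subunit of the ATP synthase ring, was higher in PPARγ-KO, at 122.2, 127.6 and 122.3 CPM against 114.7, 102.2 and 109.4 CPM (log2 fold change 0.20, edgeR adjusted p = 0.0446). The other 2 genes for this subunit, Atp5g2 and Atp5g3, were not called, and Atp5g2 is uncertain, because 86.4% of its windows of 100 bases also occur elsewhere in the transcripts of other genes. The same share was 30.3% for Atp5o, 11.7% for Cox7a2l, 6.2% for Atp5g1 and 0% for Ndufa2, Cox7a2, Ndufs4 and Uqcrh. Ndufa2 overlaps Tmco6 on the opposite strand by 60 bases.

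**Figure D2:**
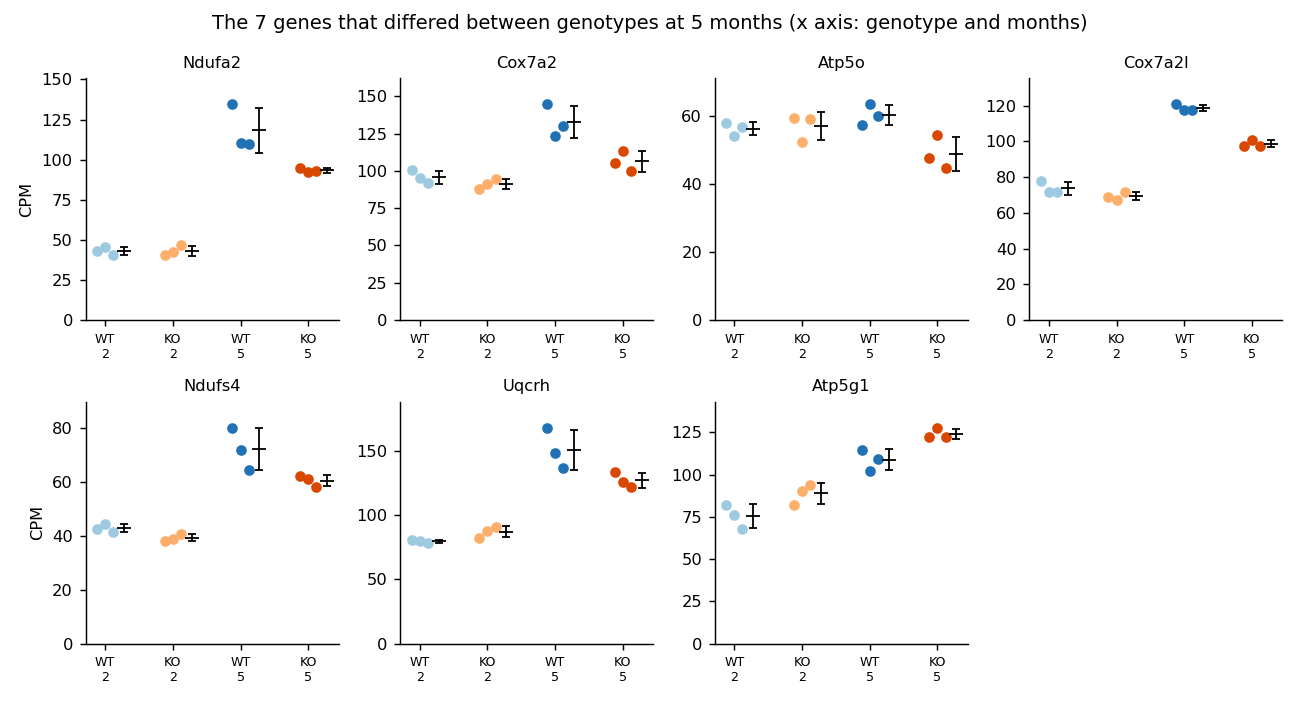
CPM of the 7 genes called between genotypes at 5 months in each library, by genotype (WT, wild-type; KO, PPARγ-KO) and months on FFD, with the mean and SD of the 3 libraries beside the points; every axis starts at 0. In Cox7a2l the 5-month wild-type libraries lie at 117.5 to 120.7 CPM and the PPARγ-KO libraries at 97.48 to 101 CPM.

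Calls at 5 months depended on single libraries and on gene length. Leaving out 1 library gave 2 to 8 calls: 4 without wild-type replicate 2, 3 without PPARγ-KO replicate 1 and 2 without PPARγ-KO replicate 3. Cox7a2l and Ndufa2 kept their calls whichever 1 library was left out, whereas Cox7a2 lost its call without PPARγ-KO replicate 3 (edgeR adjusted p = 0.0629). Atp5o lost its call without wild-type replicate 2 or 3 or PPARγ-KO replicate 1 or 3 (0.0718 to 0.109), and Ndufs4, Uqcrh and Atp5g1 each lost theirs without at least 5 of the 6 libraries and in DESeq2. In a fit that adjusts each library for the trend of counts with transcript length, the calls of all 6 lower genes were lost (Cox7a2l -0.17 with an edgeR adjusted p of 0.0614; Ndufa2 0.132; Uqcrh 0.657). The same fit moved the median of the nuclear members from -0.07 to 0.04, and its 4 calls were all higher in PPARγ-KO: Atp5g3, Ndufaf1, Uqcr10 and mt-Nd4.

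By complex, the medians at 5 months were small. They were -0.10 for the 36 nuclear genes of complex I, 0.12 for its 8 assembly factors, -0.04 for complex II, -0.03 for complex III, -0.09 for complex IV and -0.04 for the ATP synthase, on the log2 scale of PPARγ-KO over wild-type. Without overlap of the groups, 21 of the 87 nuclear members were lower and 2 higher in PPARγ-KO, against 19% and 15.8% of all genes. The sum over all nuclear members was 0.959 of wild-type at 5 months and 0.979 at 2 months. Wild-type replicate 1 at 5 months had the highest sum of all libraries, 14395 CPM against 12711 and 12782 in the other two.

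The effect of the genotype was then compared between the times. For the difference (PPARγ-KO over wild-type at 5 months minus the same at 2 months), edgeR called 0 members of 100 and 1.57% of all 15127 genes. Without adjustment 15 members had p under 0.05, and DESeq2 called 3, namely mt-Nd4l, Ndufb4 and Uqcrh. With the replicate number as a block, edgeR called 1 member for this difference, Ndufb4, and 1.72% of all genes. The numbers do not pair the libraries at 5 months, so that call adds no support.

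**Figure D3:**
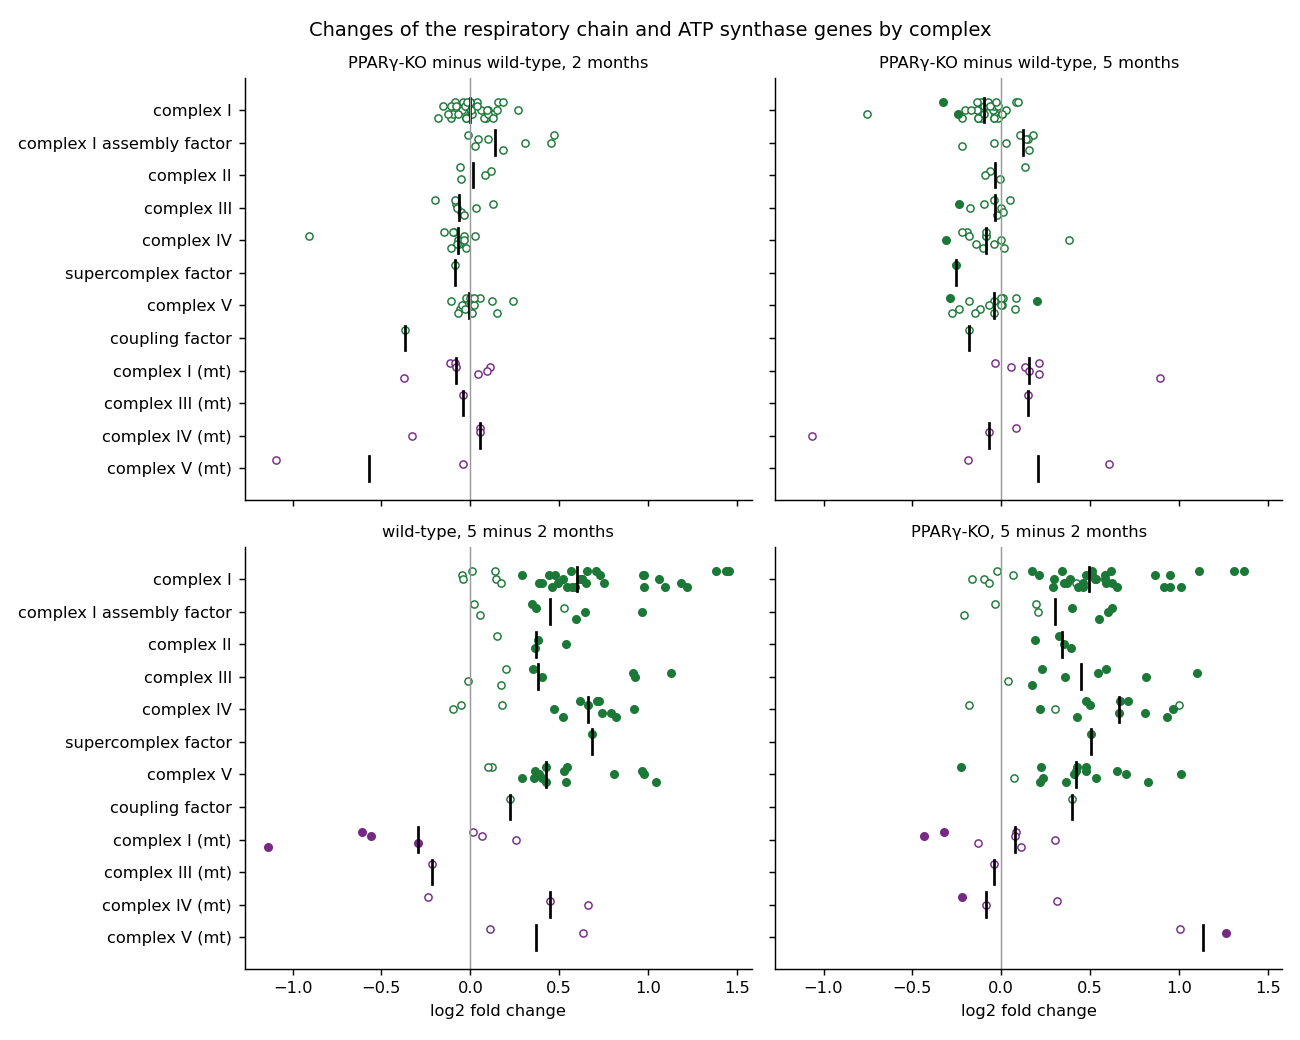
Log2 fold change (x axis) of each tested gene, by complex and origin (mt, mitochondrially encoded), in 4 comparisons; filled points passed an edgeR adjusted p of 0.05, open points did not, and the vertical strokes are medians. The nuclear complexes and the assembly factors have medians of 0.30 to 0.66 over time and near 0 between genotypes.

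Time on the diet went with the larger differences. In wild-type livers 72 members differed between 5 and 2 months, 68 of them higher and all of these nuclear, where edgeR called 46.4% of all genes, 23.8% higher and 22.7% lower. The 4 lower members were mt-Nd4l, mt-Nd5, mt-Nd6 and mt-Nd4. In PPARγ-KO livers 75 members differed, 71 higher and 4 lower, against 44.9% of all genes, 22.7% higher and 22.2% lower. In these livers 70 of the higher ones were nuclear and the other was mt-Atp8, and the lower ones were mt-Nd6, mt-Nd5, mt-Co1 and Atp5o. The medians of the nuclear members were 0.54 in wild-type and 0.46 in PPARγ-KO, against -0.01 over all genes in each. The 2 comparisons share no library, but both set 5 against 2 months, where time and preparation cannot be told apart. Of the members called higher, 64 were higher in both genotypes, which is 94.1% of the wild-type calls and 90.1% of the PPARγ-KO calls. Among the members 0 were called in opposite directions. The matching share over all genes in this fit is not given here, so these percentages have no background beside them.

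The rise over time was seen in each nuclear complex. In wild-type, 30 of 36 tested complex I genes were called higher (median 0.60), 5 of 8 assembly factors (0.45), 3 of 4 genes of complex II (0.37), 5 of 8 of complex III (0.38), 10 of 13 of complex IV (0.66) and 14 of 16 of the ATP synthase (0.43). In PPARγ-KO the counts were 30, 4, 4, 7, 10 and 14, with medians of 0.49, 0.30, 0.34, 0.45, 0.66 and 0.42. The sum over all nuclear members ran from 9108 to 9963 CPM in the 6 libraries at 2 months and from 12312 to 14395 CPM in the 6 at 5 months, a ratio of 1.38 in wild-type and 1.36 in PPARγ-KO. Without overlap of the times, 71 of the 87 nuclear members were higher and 0 lower in wild-type, against 28.8% and 28% of all genes, and 71 and 2 in PPARγ-KO, against 28.2% and 27.5%.

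A looser rule, an unadjusted p under 0.05 with a 1.3-fold change, also made few calls between genotypes and many over time. It called 3 members at 2 months, 2 higher and 1 lower, where it called 4.55% and 6.48% of all genes, and 1 member at 5 months, which was lower, where it called 7.07% and 9.89%. Over time it called 61 members higher and 3 lower in wild-type (20.7% and 20.4% of all genes) and 55 and 1 in PPARγ-KO (17.4% and 18.6%).

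The largest rises were in small subunits of complex I. Ndufa1, an accessory subunit of the membrane arm, had 25.53, 27.89 and 23.08 CPM in wild-type at 2 months and 76.3, 64.74 and 66.75 CPM at 5 months (log2 fold change 1.44, SE 0.09, edgeR adjusted p = 2.56e-06). In PPARγ-KO it went from 22.15, 28.33 and 24 to 70.16, 57.72 and 63.97 CPM (log2 fold change 1.36). No library of either genotype overlapped between the times. Ndufs6, a subunit that binds zinc near the electron input module, went from 32.47 to 33.98 CPM to 82.23 to 96.26 CPM in wild-type and from 30.27 to 35.79 to 75.91 to 87.99 CPM in PPARγ-KO (log2 fold changes 1.38 and 1.31). Ndufa2 rose by 1.45 and 1.11 on the log2 scale, from 40.26 to 46.7 CPM in all 6 libraries at 2 months. Outside complex I, Uqcr11 of complex III rose by 1.13 in wild-type and 1.10 in PPARγ-KO, and Cox5b of complex IV by 0.97 in PPARγ-KO and 0.92 in wild-type.

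Other members with large rises were Ndufb11 (1.22), Ndufa13 (1.09), Ndufb4 (1.06), Atp5mpl (1.05) and Ndufa3 (0.98) in wild-type, and Ndufc2 (1.01), Atp5k (1.01), Ndufb3 (0.95) and Ndufa13 (0.95) in PPARγ-KO, all on the log2 scale. Ndufa12, an accessory subunit of complex I, was called in wild-type at 1.19 (SE 0.30), but its 5-month libraries held 33.05, 34.79 and 15.97 CPM. The call was lost without wild-type replicate 1, 2 or 3 at 2 months or replicate 1 at 5 months and with both length adjustments (edgeR adjusted p up to 0.119), and in PPARγ-KO its 5-month libraries held 18.87, 12.4 and 17.79 CPM. Atp5o, which fell by 0.22 in PPARγ-KO over time (edgeR adjusted p = 0.0499), lost its call in 8 of 16 settings.

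Transcript length went with the rise over time in other genes and, up to 3000 bases, in the members. The length used was that of the principal coding transcript in GENCODE M21, with a median of 875 bases in the nuclear members. Among other protein-coding genes in wild-type, the median log2 fold change over time was 0.91 for transcripts up to 500 bases, 0.77 from 500 to 750, 0.62 from 750 to 1000, 0.42 from 1000 to 1500 and 0.24 from 1500 to 2000. It was 0.07 from 2000 to 3000 bases and -0.43 above 8000. The nuclear members of these classes up to 3000 bases had medians of 0.98, 0.63, 0.71, 0.38, 0.42 and 0.07. The 5 nuclear members from 3000 to 5000 bases stood at 0.14, above the other genes of that class at -0.10, and at 0.33 after the adjustment described next. In PPARγ-KO the other genes went from 0.66 for the shortest class to -0.35 for the longest, and the members from 1.00 for the shortest to 0.20 from 2000 to 3000 bases and -0.02 from 3000 to 5000. Between genotypes the other genes spanned -0.03 to 0.02 over the classes at 2 months and -0.25 to 0.09 at 5 months, lowest in the shortest class at both times.

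**Figure D4:**
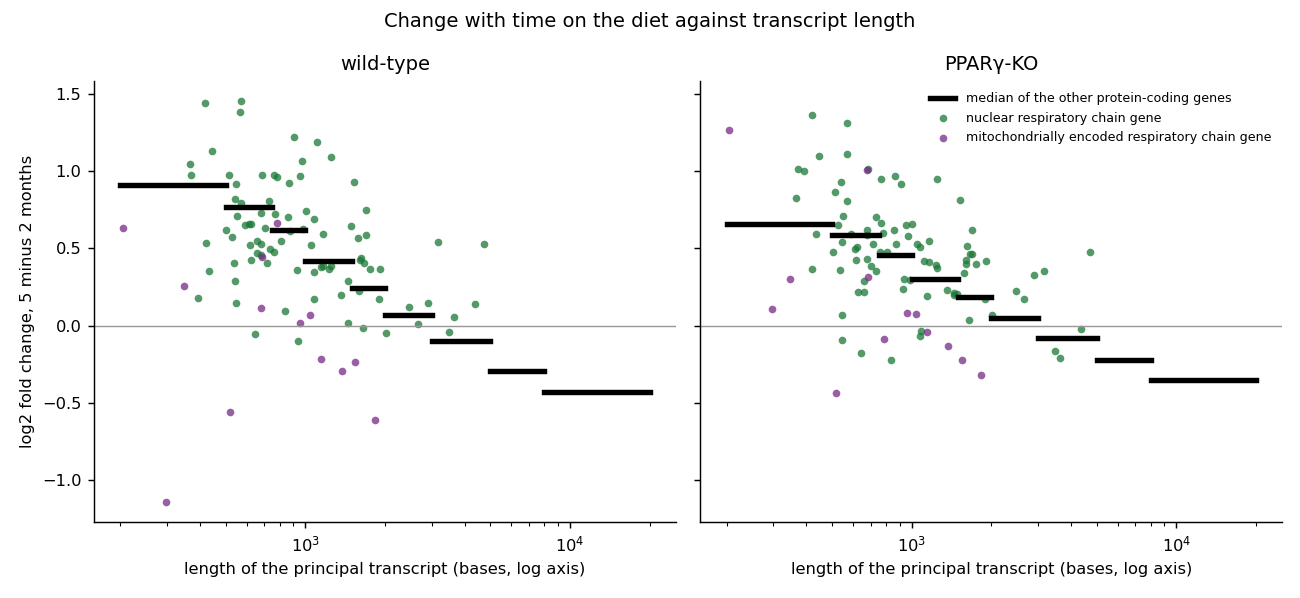
Log2 fold change from 2 to 5 months on FFD (y axis) against the length of the principal transcript in bases (x axis, log scale) in wild-type (left) and PPARγ-KO (right); points are the 100 tested members and black bars the medians of the other protein-coding genes by length class. The bars fall from 0.91 to -0.43 in wild-type and from 0.66 to -0.35 in PPARγ-KO, and most nuclear members scatter around them.

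With each library adjusted for this trend, an alternative added after the data had been seen, the median of the nuclear members over time was 0.01 in wild-type and 0.08 in PPARγ-KO. In wild-type 18 nuclear members were then called higher and 18 lower, where edgeR called 17.6% of all genes higher and 19.6% lower. In PPARγ-KO 29 were called higher and 14 lower, against 18.8% and 19.1%. By complex, the medians after adjustment were 0.06 for complex I, 0.05 for complex II, -0.10 for complexes III and IV and -0.03 for the ATP synthase in wild-type, and 0.11, 0.21, -0.06, 0.10 and 0.12 in PPARγ-KO. Nothing in the labels tells if libraries from 2 and 5 months shared a preparation or a sequencing run. Gene names that had turned into dates carried a different year in the tables of the 2 times, which does not date a preparation or a run. Time on the diet and a difference between preparations cannot be told apart.

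Some members kept their direction under both length adjustments, by transcript and by the length column in the files. In both genotypes and all 3 fits, 7.38% of the 14118 genes tested were called higher and 8.16% lower. Of the 87 nuclear members 13 were called higher by this rule, or 14.9%, and 0 lower: Ndufa1, Ndufa2, Ndufa13, Ndufb11, Ndufs4, Ndufs6 and Ndufv2 of complex I, Sdhc of complex II, Uqcr11 and Uqcrq of complex III, Cox5b of complex IV, and Atp5g1 and Atp5j2 of the ATP synthase. The rule includes the unadjusted fit, which called 0 nuclear members lower in wild-type, so the 0 lower was fixed by the rule. The members were also shorter than most genes, with a median of 1701 bases in the length column against 4043 over all genes in wild-type over time. The shares therefore do not set members against genes of like length. After adjustment for transcript length, Ndufs6 stood at 0.59 in wild-type and 0.71 in PPARγ-KO, Ndufa13 at 0.70 and 0.67, Atp5g1 at 0.71 and 0.66, and Ndufa2 at 0.66 and 0.52. Of these genes Ndufs6 overlaps Mrpl36 by 30 bases and Ndufb11 overlaps Rbm10 by 117 on the opposite strand, and Ndufa13 shares 8379 bases of its span with Yjefn3 on its own strand. Uqcrb and Cox7a2 were called higher without adjustment and lower after either one in both genotypes (Cox7a2 0.47 and -0.26 in wild-type by transcript length; Uqcrb 0.40 and -0.42).

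Promoters of the nuclear members were read from RefSeq (GRCm38.p6), 250 bases before to 50 bases after the start. A promoter was found for 77 of the 94 genes, 75 of them by symbol, under 76 distinct symbols. Among them are Cox6b2, Cox7b2 and Cox8b, which had too few counts for a test. Whether the motifs go with the change over time was not tested. On either strand, the NRF1 motif, 10 letters with 1 free position, was in 25% of them against 5.19% of 27025 genes, the GABPA motif CCGGAAG in 23.7% against 9.93%, and the YY1 motif AAGATGGC in 14.5% against 3.19%. NRF1, GABPA and YY1 are factors known to act on nuclear genes of the respiratory chain. The estrogen-related receptor motif TCAAGGTCA was in 2.63% against 0.466%, the TATA box TATAAA in 9.21% against 15.7%, and the PPAR element, a direct repeat of AGGTCA with 1 free position between, in 0 of 76 against 0.0481%. The estrogen-related receptor motif and the PPAR element share the letters AGGTCA. Windows of 60 bases before the start are shown for 4 of the members discussed here, with the motif in capitals, to let the letters be seen; all 4 genes lie on the minus strand, and the motif of Ndufs6 and that of Uqcrh are on the opposite strand of their gene (Ndufs6 chr13:73328483-73328542, Ndufb4 chr16:37654525-37654584, Uqcrh chr4:116075071-116075130, Uqcr11 chr10:80406854-80406913).
Ndufs6, NRF1: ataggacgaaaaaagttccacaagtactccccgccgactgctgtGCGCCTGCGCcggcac
Ndufb4, NRF1: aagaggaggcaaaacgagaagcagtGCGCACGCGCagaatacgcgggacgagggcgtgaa
Uqcrh, GABPA: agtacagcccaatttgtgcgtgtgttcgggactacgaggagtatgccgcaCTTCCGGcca
Uqcr11, GABPA: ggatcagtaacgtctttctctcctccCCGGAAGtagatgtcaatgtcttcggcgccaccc
The capitals begin 16 bases before the RefSeq start in Ndufs6, 191 in Ndufb4, 10 in Uqcrh and 66 in Uqcr11. In the count files Ndufs6 spans 73319838 to 73328542, so by that span its window lies inside the gene. A match of letters is a description and was not tied to binding in these livers.

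The mitochondrial protein genes were lower in sum at 5 months. Their sum ran from 51034 to 62946 CPM in the 6 libraries at 2 months and from 46519 to 52425 CPM at 5 months, a ratio of 0.862 in wild-type and 0.918 in PPARγ-KO. The ranges overlapped. Summed over these genes, PPARγ-KO livers had 1.00 times the wild-type level at 2 months and 1.07 times at 5 months. The mitochondrial rRNA genes moved the other way, from 434 to 1148 CPM in the libraries at 2 months to 1659 to 2169 CPM at 5 months.

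Before the single genes are described, a copy of mitochondrial DNA in the nuclear genome has to be taken into account. In mm10, chromosome 1 from 24611535 to 24616197, on the minus strand, holds 7 annotated copies of mitochondrial genes. Over 4149 aligned bases they differ from the mitochondrial genes at 7 positions, an identity of 99.83%. The copies of mt-Co2, mt-Atp6, mt-Co3, mt-Nd4l and the copied 63.6% of mt-Nd4 are identical to the genes, and the copy of mt-Nd3, the annotated gene Gm28438, differs by the single substitution T3C, counted from 1 at the first base of the gene. The first 60 bases of gene (chrM, shown as MT:9459-9518) and copy (chr1:24613060-24613119) show how little could tell reads apart, with the differing base in capitals.
mt-Nd3: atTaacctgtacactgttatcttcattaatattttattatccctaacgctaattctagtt
Gm28438: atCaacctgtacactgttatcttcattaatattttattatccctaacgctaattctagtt

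Of all windows of 100 bases in a gene, other annotated genes hold an identical one for 99.9% in mt-Co3, 99.5% in mt-Co2 and mt-Atp6, 98.5% in mt-Nd4l, 97.6% in mt-Nd3, 60.8% in mt-Nd4 and 30.8% in mt-Co1, and for 3.2% in mt-Nd2 and 0% in mt-Nd1, mt-Nd5, mt-Nd6, mt-Cytb and mt-Atp8. In mt-Co1 the chromosome 1 copy holds 26.3%, and the windows of mt-Nd2 lie in Gm13339, which is not among the 7 copies. Levels followed that order in part. The 5 genes at or under 3.2% other than mt-Atp8 stood at 2770 to 8164 CPM per kb. The 5 genes at 97.6% or more stood at 79.2 to 269 CPM per kb. The copies themselves took up 95366 counts, and the copy of mt-Atp6 had 24830 counts against 37660 for the gene. Values of mt-Co2, mt-Atp6, mt-Co3, mt-Nd3 and mt-Nd4l are therefore uncertain, and so are the parts of mt-Nd4 and mt-Co1 that are copied. mt-Atp8 has no annotated copy, lies between 2 copied genes and overlaps mt-Atp6 by 43 bases, and its 226 counts in all libraries make it uncertain as well.

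**Figure D5:**
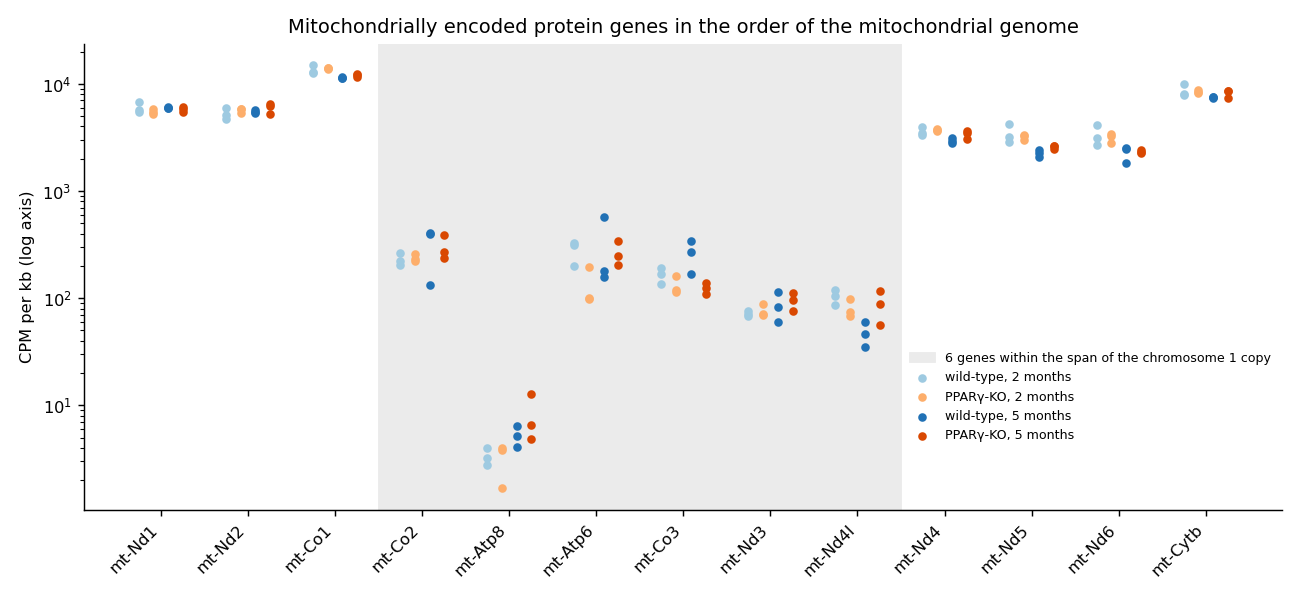
CPM per kb (y axis, log scale) of the 13 mitochondrially encoded protein genes in each of the 12 libraries, in the order of the mitochondrial genome; the shaded genes lie within the span of the chromosome 1 copy. Genes outside the shading stand above 1000 CPM per kb in every library, and those inside it below 1000.

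Of the genes without a copy, mt-Nd5 and mt-Nd6, both core subunits of complex I, were lower at 5 months in both genotypes. mt-Nd5 had 7631, 5794 and 5229 CPM in wild-type at 2 months and 3751, 4091 and 4392 CPM at 5 months (log2 fold change -0.61, SE 0.15, edgeR adjusted p = 0.00593). In PPARγ-KO it went from 6135, 5493 and 5967 CPM to 4824, 4463 and 4817 CPM (log2 fold change -0.32, edgeR adjusted p = 0.00341). The libraries of the 2 times did not overlap in either genotype, and both calls held in every setting tried. mt-Nd6, the one protein gene on the other strand of the mitochondrial genome, had 2160, 1626 and 1399 CPM against 949.9, 1269 and 1300 CPM in wild-type (log2 fold change -0.56, edgeR adjusted p = 0.0317) and 1781, 1443 and 1688 CPM against 1261, 1210 and 1167 CPM in PPARγ-KO (log2 fold change -0.44, edgeR adjusted p = 0.00113). The call in PPARγ-KO held in every setting, and that in wild-type was lost with the replicate block (0.135) and without wild-type replicate 1 or 2 at either time (-0.36 on the log2 scale without replicate 1 at 2 months). mt-Nd5 and mt-Nd6 lie on opposite strands and overlap by 14 bases, and whether counting used the strand is not given in the sources used here.

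mt-Nd1, mt-Nd2 and mt-Cytb did not pass the test over time in either genotype, and mt-Co1, copied in part, passed in PPARγ-KO. mt-Nd1 ranged from 5239 to 6414 CPM in wild-type at 2 months and from 5697 to 5867 CPM at 5 months, and mt-Cytb from 9003 to 11350 and from 8359 to 8605 CPM. mt-Co1 in PPARγ-KO went from 21150 to 21880 CPM to 17930 to 19040 CPM (log2 fold change -0.22, edgeR adjusted p = 0.0203), a call that was lost in the fit of all 12 libraries and without PPARγ-KO replicate 1 or 3 at 2 months or replicate 2 at 5 months (highest adjusted p = 0.0656). After adjustment for transcript length, 9 mitochondrial genes were called lower over time in wild-type and 8 in PPARγ-KO, with medians of -0.60 and -0.38. The shares of all genes called in that fit are those given above beside the nuclear members. Without adjustment the medians of the mitochondrial genes were 0.02 and 0.08. The subtracted trend comes almost wholly from nuclear genes, and whether mitochondrial transcripts follow it was not tested.

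Among the other genes with a copy, the calls were mt-Nd4l and mt-Nd4 in wild-type over time. mt-Nd4l had 31.2, 25.83 and 35.05 CPM at 2 months and 10.31, 17.6 and 13.83 CPM at 5 months (log2 fold change -1.14, edgeR adjusted p = 0.00173), held in every setting, and mt-Nd4 changed by -0.29 (edgeR adjusted p = 0.0456), a call lost without any 1 of the 6 libraries (up to 0.15). In PPARγ-KO mt-Nd4l overlapped between the times, at 20.13 to 29.01 and 16.61 to 34.26 CPM. mt-Atp8, without an annotated copy, was called in PPARγ-KO at 1.26 (SE 0.44, edgeR adjusted p = 0.0358) on 0.342 to 0.8186 CPM at 2 months and 0.9908 to 2.587 CPM at 5 months, and the call was lost with both length adjustments and without PPARγ-KO replicate 1 or 2 at 2 months or replicate 2 or 3 at 5 months. Spread within groups was wide here. mt-Atp6 had 123.2, 391.1 and 107.2 CPM in wild-type at 5 months, and mt-Co2 had 91.4, 276.1 and 273.3 CPM.

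Between genotypes, 0 of the 13 mitochondrial genes passed at either time in edgeR, where 2 (2 months) and 3 (5 months) had p under 0.05 before adjustment. mt-Co3, a gene with a copy, came closest, at 212.5, 267.8 and 132.6 CPM in wild-type and 107.8, 96.78 and 85.68 CPM in PPARγ-KO at 5 months (log2 fold change -1.07, edgeR adjusted p = 0.0783). DESeq2 also called 0 members at 2 months. At 5 months mt-Nd1, mt-Nd2, mt-Nd5, mt-Nd6 and mt-Cytb, which have no copy or nearly none, had a median of 0.13 with 4 of 5 above 0.

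Other genes of the pathway were read from lists. Of 12 electron carriers and linked dehydrogenases, 5 were called higher and 3 lower over time in wild-type, and 4 each way in PPARγ-KO. The shares of all genes were 23.8% higher and 22.7% lower in wild-type, and 22.7% and 22.2% in PPARγ-KO. The 3 lower in wild-type are near that share, and the counts are without length adjustment. Cycs, cytochrome c, rose by 0.72 and 0.65 on the log2 scale. Gpd2, the mitochondrial glycerol phosphate dehydrogenase, was lower in PPARγ-KO at 2 months (104.5 and 69.57 CPM, log2 fold change -0.59, edgeR adjusted p = 0.0154) and at 5 months (77.57 and 56.08 CPM, -0.46, edgeR adjusted p = 0.00103), and the call at 2 months was lost in 5 of 16 settings (up to 0.0686). At 5 months Prodh, proline dehydrogenase, was higher by 0.79. Gpd2 and Prodh were the called genes of that list between genotypes.

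Assembly factors were more often called higher than lower over time. Of all genes, 23.8% were called higher and 22.7% lower in wild-type, and 22.7% and 22.2% in PPARγ-KO. Of 10 further complex I assembly factors tested, 6 were called higher in wild-type and 5 in PPARγ-KO, with 0 lower. Of 32 tested factors of complexes II to V, 17 were higher and 3 lower in wild-type and 14 and 3 in PPARγ-KO, led by Uqcc2 (1.56 and 1.38) and Cox14 (1.05 and 0.95). These counts are without length adjustment. Uqcc2 and Cox14 kept their calls in all 16 settings in both genotypes, at no less than 0.70 and 0.24 in wild-type. Adjustment for the length column took Dmac1 (-0.047) and Coa3 (-0.083) below 0 in wild-type, and Dmac1 (-0.21) and Higd2a (-0.20) in PPARγ-KO. Between genotypes edgeR called 0 of either list at both times. Of 11 coenzyme Q genes, 3 were higher over time in wild-type, near the share of all genes, and 6 in PPARγ-KO, and 0 were called lower, and between genotypes Coq8a was higher (0.41) and Coq2 lower (-0.24) at 5 months.

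Mitochondrial ribosomal proteins, which translate the mitochondrial transcripts, were mostly called higher over time. Of 74 tested, 56 were called higher and 0 lower in each genotype (medians 0.52 and 0.39). The shares of all genes called higher were 23.8% in wild-type and 22.7% in PPARγ-KO. After adjustment for transcript length 24 of the 74 were higher and 6 lower in wild-type and 29 and 3 in PPARγ-KO. At 5 months 3 of 74, or 4.05%, were lower in PPARγ-KO, against 9.51% of all genes, namely Mrpl52, Mrps28 and Mrpl54. These calls were lost in 9, 9 and 10 of 16 settings, and with adjustment for the length column 0 of the list were called lower in edgeR. Of 15 genes of the outer membrane, import and chaperones, 9 rose in wild-type and 8 in PPARγ-KO, led by Hspe1 (1.19 and 0.96), and Vdac1 was higher in PPARγ-KO at 5 months (0.24). Of 14 citric acid cycle genes, 4 were called higher and 4 lower over time in wild-type, near the shares of all genes (23.8% and 22.7%). In PPARγ-KO 7 of the 14 were higher and 1 lower, against 22.7% and 22.2% of all genes. Idh2 rose by 0.41 and 0.80 and Ogdh fell by 0.43 and 0.38 on the log2 scale. Between genotypes edgeR called 0 citric acid cycle genes at either time, with 6 (2 months) and 2 (5 months) under 0.05 before adjustment.

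Regulators of mitochondrial biogenesis were lower over time in wild-type more often than higher. In wild-type over time 6 of 11 were called lower and 0 higher, against 22.7% and 23.8% of all genes. Among them were Ppara, Ppargc1b (-1.81), Esrrg (-1.85), Ppargc1a (-0.48) and Nrip1 (-0.47). The calls of Ppara, Ppargc1b and Esrrg held in all 16 settings. That of Ppargc1a was lost in 3 settings (weakest -0.17) and that of Nrip1 in 2 (weakest -0.07). In PPARγ-KO 3 of 11 were lower and Esrra was higher (0.42), against 22.2% and 22.7% of all genes. At 5 months Ppargc1a, a coactivator of mitochondrial genes, had 6.92 CPM in wild-type and 17.1 in PPARγ-KO (log2 fold change 1.32, SE 0.10, edgeR adjusted p = 4.65e-06), and Esrrg, an estrogen-related receptor, had 2.07 and 5.16 CPM (1.32, edgeR adjusted p = 0.00172). Ppara was also higher (0.45) and Pprc1 lower (-0.45).

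Of 14 genes of mitochondrial DNA transcription and replication, 1 was higher and 4 lower over time in wild-type, against 23.8% and 22.7% of all genes. In PPARγ-KO 2 were higher and 5 lower, against 22.7% and 22.2%. At 5 months Lrpprc (0.33), Twnk (0.32) and Top1mt (0.37), which act on mitochondrial RNA and DNA, were higher in PPARγ-KO, where edgeR called 8.9% of all genes higher. Of 5 tested genes of uncoupling and adenine nucleotide transport, 3 were lower in PPARγ-KO at 5 months, against 9.51% of all genes. These were Slc25a4, an exchanger of ADP and ATP (14.4 and 9.10 CPM, log2 fold change -0.65), Ucp2 (83.2 and 53.2 CPM, -0.64) and Slc25a20, the carnitine carrier (-0.28). Ucp2 is abundant in macrophages, whose 10 markers were lower in 9 genes at the same time, and their part in its fall was not tested.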

How the data were processed

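The authors deposited whole-number counts of reads per gene, 1 table per library, without normalization. Libraries were prepared and sequenced by Novogene on an Illumina NovaSeq. The study's methods name STAR and the submitters' processing notes name HISAT2, with mm10 as the build. The counting program, the annotation and the use of strand are not given in the sources used here. Gene names stored as dates, 27 in all, were restored from the gene identifier.

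Members and lists were chosen with earlier results of these data known. Counts were analysed in R 4.3.3 with edgeR 4.0.16, by TMM scaling, filterByExpr, the robust quasi-likelihood F-test (two-sided) and Benjamini-Hochberg adjustment over all genes tested at 0.05. Each pairwise comparison used its 6 libraries, and the difference between times all 12. The text names, in each comparison, up to 10 called members with the largest rise and fall, the 13 mitochondrially encoded genes, tissue isoforms, the highest and lowest member of each complex, Pparg, and up to 5 called genes of each list. Lists covered electron carriers, assembly factors, coenzyme Q, biogenesis regulators, mitochondrial DNA, the citric acid cycle, outer membrane and chaperones, uncoupling, mitochondrial ribosomal proteins and cell markers.

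Length adjustments added to each library a lowess trend (span 0.03, protein-coding genes above 2 CPM) on the length column of the files or, as an alternative chosen after seeing the data, on the principal transcript. Other alternatives were DESeq2 1.42.0, its size factors, library size alone, scaling on nuclear genes, no filter on low counts, a minimum of 10 counts in each library, an unadjusted p with a 1.3-fold change, all 12 libraries in one fit, the replicate number as a block and each library left out. The fits were tested on simulated data with 200 changed genes. Depth was 16367775 to 27452284 counts per library.

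Same-numbered libraries at 2 months correlated at 0.218, 0.323 and 0.14 once group means were removed (5000 genes), so their numbers were taken to pair them. A pair with different numbers (1 and 3) also reached 0.113, so the pairing is uncertain. The main test used no block. In the other comparisons at least 1 such correlation was under 0.1.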

Additional observations from a re-analysis of the deposited data

Results flagged for a closer look

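Among the genes the text names, 2 differed in their response to the genotype between the times in edgeR's test of the difference. The genotype difference in Pparg itself was larger at 5 months than at 2 months by 0.63 ± 0.14 (log2, SE; edgeR adjusted p = 0.0432), with all 3 libraries labelled PPARγ-KO above all 3 wild-type libraries at both times. The difference in Esrrg was larger by 1.71 (SE 0.31, edgeR adjusted p = 0.0112), from -0.40 at 2 months, where the groups overlapped, to 1.32 at 5 months, where they did not. No member of the respiratory chain did so in that test, where 15 had an unadjusted p under 0.05 and DESeq2 called 3. Groups of 3 libraries are too small for a check of single outlying libraries.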

How the results depend on the processing

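The number of members called at 2 months was 3 with an unadjusted p and a 1.3-fold change (mt-Atp6, Ndufaf3, Ndufaf6), 4 with no filter (mt-Co3, mt-Nd4l, Ndufaf3, Ndufaf6), 1 with all 12 libraries in one fit (Ndufaf6), and 0 to 2 with each library left out (Atp5g1 and Ndufaf6 without wild-type replicate 1). At 5 months it was 1 with the unadjusted rule (mt-Co3), 21 with library size alone (all lower, against 6 lower and 1 higher), 10 with no filter, 5 and 4 with adjustment for the length column and for transcript length, and 2 to 8 with each library left out. Over time it was 45 in wild-type with adjustment for transcript length and 51 with the length column, against 72, and 66 to 71 with each library left out. In PPARγ-KO it was 51 and 58 against 75, and 64 to 75. For the difference between times it was 4 with the unadjusted rule, 3 in DESeq2, 2 with no filter, 1 with either length adjustment (Uqcr10), and 0 to 1 with each library left out (Ndufa12 without wild-type replicate 3 at 5 months). Settings not listed stayed within 1.5 times. Library size alone moved the median of all genes by less than 0.1, and from -0.01 to -0.07 between genotypes at 5 months.

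With the replicate number as a block, members called numbered 0, 8, 72, 72 and 1 in the order of comparisons above. The pairing that the numbers give at 2 months changed no call of a member there, while the share of all genes called went from 3.56% to 5.61%. The numbers do not pair the other comparisons, and the block lost Atp5g1 at 5 months.

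Adjustment for the length column reversed the direction over time in wild-type of Etfb (-0.16), Dmac1 (-0.047), Lyrm2 (-0.15), Coa3 (-0.083), Tefm (-0.13), Slc25a5 (-0.17), Cox7a2 (-0.22), Cox8a (-0.23), Cox6b1 (-0.29) and Cox6a1 (-0.026), and in PPARγ-KO of Dmac1 (-0.21), Higd2a (-0.20), Cox7a2l (-0.021), Cox7a2 (-0.35), Cox8a (-0.005) and Cox6b1 (-0.25). For transcript length these were Etfb (-0.078), Tmem126a (-0.12), Lyrm2 (-0.37), Polg (0.014), Tefm (-0.039), Slc25a5 (-0.13), Atp5g3 (-0.31), Ndufa4 (-0.10), Cox7a2 (-0.26), Cox8a (-0.10) and Cox6b1 (-0.23) in wild-type, and Dmac1 (-0.075), Tmem126a (-0.17), Higd2a (-0.065), Polg (0.063), Atp5g3 (-0.008), Ndufa4 (-0.079), Cox7a2 (-0.34) and Cox6b1 (-0.15) in PPARγ-KO.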
